A study of Mus musculus with 34 samples.

Results

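The cytosolic ribosomal protein genes were chosen by symbol: protein-coding genes named Rpl or Rps with a number and at most 1 further letter other than l, or the suffix a1, together with Rplp0, Rplp1, Rplp2 and Rpsa. The rule used no measured value. It found 77 genes, 46 of the large and 31 of the small ribosomal subunit, among 21631 protein-coding genes of chromosomes 1 to 19 and X. It left out 10 kinase genes, 8 symbols ending in l or l1, and 6 symbols with other suffixes, such as Rpl37rt and Rps27rt. The genes were short, with a median length of 3175 bp and a range of 982 to 11774 bp. They lay on 19 chromosomes, and 4 of them (Rpl10, Rpl36a, Rpl39 and Rps4x) were on X.

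Each ribosome holds nearly all of these proteins in equal copy number, and their scattered genes are transcribed at high rates in almost every cell, microglia included. Their promoters usually start transcription inside a pyrimidine tract, which makes the transcript a TOP mRNA whose translation follows mTOR signalling, and often carry sites for the factors GABP, SP1 and YY1. H3K4me3 marks nucleosomes around active starts, H3K9ac and H3K27ac mark active promoters and enhancers, and H3K9me3 marks heterochromatin.

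The marks were profiled by ULI-NChIP-seq, an immunoprecipitation of unfixed chromatin scaled down for few cells, in mouse microglia from the hippocampus. FGR mice, of a series on restricted growth in the uterus, were set against Ctrl mice. Microglia of both groups carried the Tmem119-tdTomato+/- genotype, a fluorescent reporter under the microglial gene Tmem119, so the controls carry the reporter too. Replicates 1 to 3 of both groups were from week 3 postpartum, and no age is given for replicate 4. Each of the 4 marks had 4 FGR and 4 Ctrl libraries, 32 lists of called peaks in all. How FGR was brought about, and whether a library came from 1 animal or a pool, is not given in the sources used here. All p-values below therefore measure only the spread between these libraries, which may be technical.

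Microglia markers were covered by peaks in both groups, and the 10 marker genes summed to 43.8 to 49.4 kb of H3K4me3 per FGR library and 19.04 to 22.3 kb per Ctrl library. Neuron markers, 7 genes, had 1.45 to 2.07 kb of H3K4me3 in FGR and 0 to 0.72 kb in Ctrl libraries. No read counts came with the lists, so depth is unknown, and the lowest local background of a list served as a stand-in. It was lower in every FGR library, at 0.846 to 1.16 in FGR and 2.83 to 3.58 in Ctrl for H3K4me3, at 0.523 to 0.659 in FGR and 2.35 to 2.63 in Ctrl for H3K9ac, and at 0.621 to 0.767 in FGR and 2.39 to 2.75 in Ctrl for H3K27ac. The smallest peak width was 148 to 150 bp in FGR and 275 to 280 bp in Ctrl for H3K4me3, 252 to 260 bp in FGR and 262 to 271 bp in Ctrl for H3K9ac, and 148 to 151 bp in FGR and 267 to 284 bp in Ctrl for H3K27ac. Background and the smallest width thus moved with the groups for these 3 marks, and their part in the results cannot be told apart from that of FGR. The FGR libraries labelled H3K4me3 also went against their label in 1 respect. Across 16008 genes their mean correlation with Ctrl H3K9ac libraries was 0.876, against 0.765 with Ctrl H3K4me3 libraries. The FGR libraries labelled H3K9ac correlated at 0.666 with Ctrl H3K9ac and at 0.531 with Ctrl H3K4me3 libraries. The contrast was not limited to these pairs. FGR H3K4me3 libraries also correlated at 0.785 with Ctrl H3K27ac libraries, and FGR H3K9ac libraries at 0.692 with FGR H3K4me3 libraries. Among themselves, Ctrl H3K4me3 libraries correlated at only 0.837, against 0.969 for Ctrl H3K9ac libraries. Whether labels were exchanged was not tested. The counts of members called for both marks are therefore given again with the FGR labels of H3K4me3 and H3K9ac exchanged. All other values, those of single genes, peak positions and widths included, stand under the deposited labels only.

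Promoter sequences of 57 members, from 250 bases before to 50 after the start, were taken from RefSeq (GRCm38.p6). The 6 printed here run from 100 bases before the start to 20 after it, 5′ to 3′ on the strand of the gene. Rps10, Rps15 and Rpl10a are among the members with the largest rise of H3K9ac in FGR, and Rps15a, Rps9 and Rpl4 among those with the largest fall, so they are shown as genes whose windows went opposite ways. Those differences are over the whole window and not at the start, and at Rpl10a and Rps15a they did not pass the test within 1 kb of the gene ends. Capitals mark a GABP or ETS core (CCGGAA), a YY1 core (AAGATGG) or an SP1 core (GGGCGG) on either strand, and pyrimidine runs of at least 8 bases near the start.
Rps10: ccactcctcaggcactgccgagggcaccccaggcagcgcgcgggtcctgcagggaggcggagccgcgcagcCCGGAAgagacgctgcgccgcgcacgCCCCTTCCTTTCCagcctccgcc
Rps15: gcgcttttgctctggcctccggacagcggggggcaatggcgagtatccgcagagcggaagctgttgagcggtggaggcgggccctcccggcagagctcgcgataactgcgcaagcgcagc
Rpl10a: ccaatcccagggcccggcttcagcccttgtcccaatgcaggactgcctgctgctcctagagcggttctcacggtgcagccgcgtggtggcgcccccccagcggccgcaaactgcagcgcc
Rps15a: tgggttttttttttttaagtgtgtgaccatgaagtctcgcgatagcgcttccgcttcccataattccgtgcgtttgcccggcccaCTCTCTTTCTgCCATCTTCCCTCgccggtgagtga
Rps9: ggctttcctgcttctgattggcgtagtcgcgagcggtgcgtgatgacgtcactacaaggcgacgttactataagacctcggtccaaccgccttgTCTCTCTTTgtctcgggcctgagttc
Rpl4: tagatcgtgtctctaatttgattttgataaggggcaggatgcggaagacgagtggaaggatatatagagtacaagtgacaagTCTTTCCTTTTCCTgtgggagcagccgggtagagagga
In order they lie at chr17:27635225-27635344 on the minus strand, chr10:80292331-80292450 and chr17:28328371-28328490 on the plus strand, chr7:118116128-118116247 on the minus strand, and chr7:3703941-3704060 and chr9:64173287-64173406 on the plus strand. The table places the start of Rps9 87 bases inside the gene end used for its window, and the others at the gene end.

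Rps10 holds a GABP core followed by a run of 13 pyrimidines, and Rps15a a YY1 core that overlaps a pyrimidine run and follows one of 10. Rps9 and Rpl4 hold runs of 9 and 14 pyrimidines, and the printed stretches of Rps15 and Rpl10a hold none of the motifs. The printed stretches had a G and C content of 75.8% for Rps10, 68.3% for Rps15 and 70% for Rpl10a, and of 51.7% for Rps15a, 55.8% for Rps9 and 45.8% for Rpl4. These 6 were picked after their values were seen, and over all members the split was not as clean: the 300 bases of members that rose and of members that fell in H3K9ac had median contents of 60% and 56.7% with wide overlap. Over the 57 members, which share their libraries, G and C content and the H3K9ac difference had a Spearman rho of 0.118. Over the whole 300 bases, the GABP core was found in 29 of the 57 members (50.9%) and in 19.3% of 17274 protein-coding genes. The YY1 core was found in 9 members (15.8%) and 6.40% of all genes, and the SP1 core in 34 members (59.6%) and 46.9% of all genes. A pyrimidine run of at least 8 bases between 20 bases before and 30 after the start stood in 29 members (50.9%) and 18.4% of all genes. No core contains another, though a YY1 core read on the other strand can lie beside or in a pyrimidine run. A match is a description of letters and not of a bound site.

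H3K4me3 was measured as covered length, the kb that called peaks take up in a window reaching 2.5 kb out from each gene end. All 77 members were covered more in FGR than in Ctrl at a limma adjusted p under 0.05, and none less, while 95.5% of the 14043 genes tested were covered more. The count over members is thus close to the background, and H3K4me3 rose at nearly every gene with a peak. The median member had 1.94 kb in FGR and 0.823 kb in Ctrl, a median difference of 1.13 kb beside 0.887 kb over all genes tested. In 76 members every FGR library lay above every Ctrl library, as in 93% of all genes tested, and the exception was Rpl32. In chromatin pooled from many cells, a mark carried by more cells and a wider mark in each cell cannot be told apart.

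**Figure D1:**
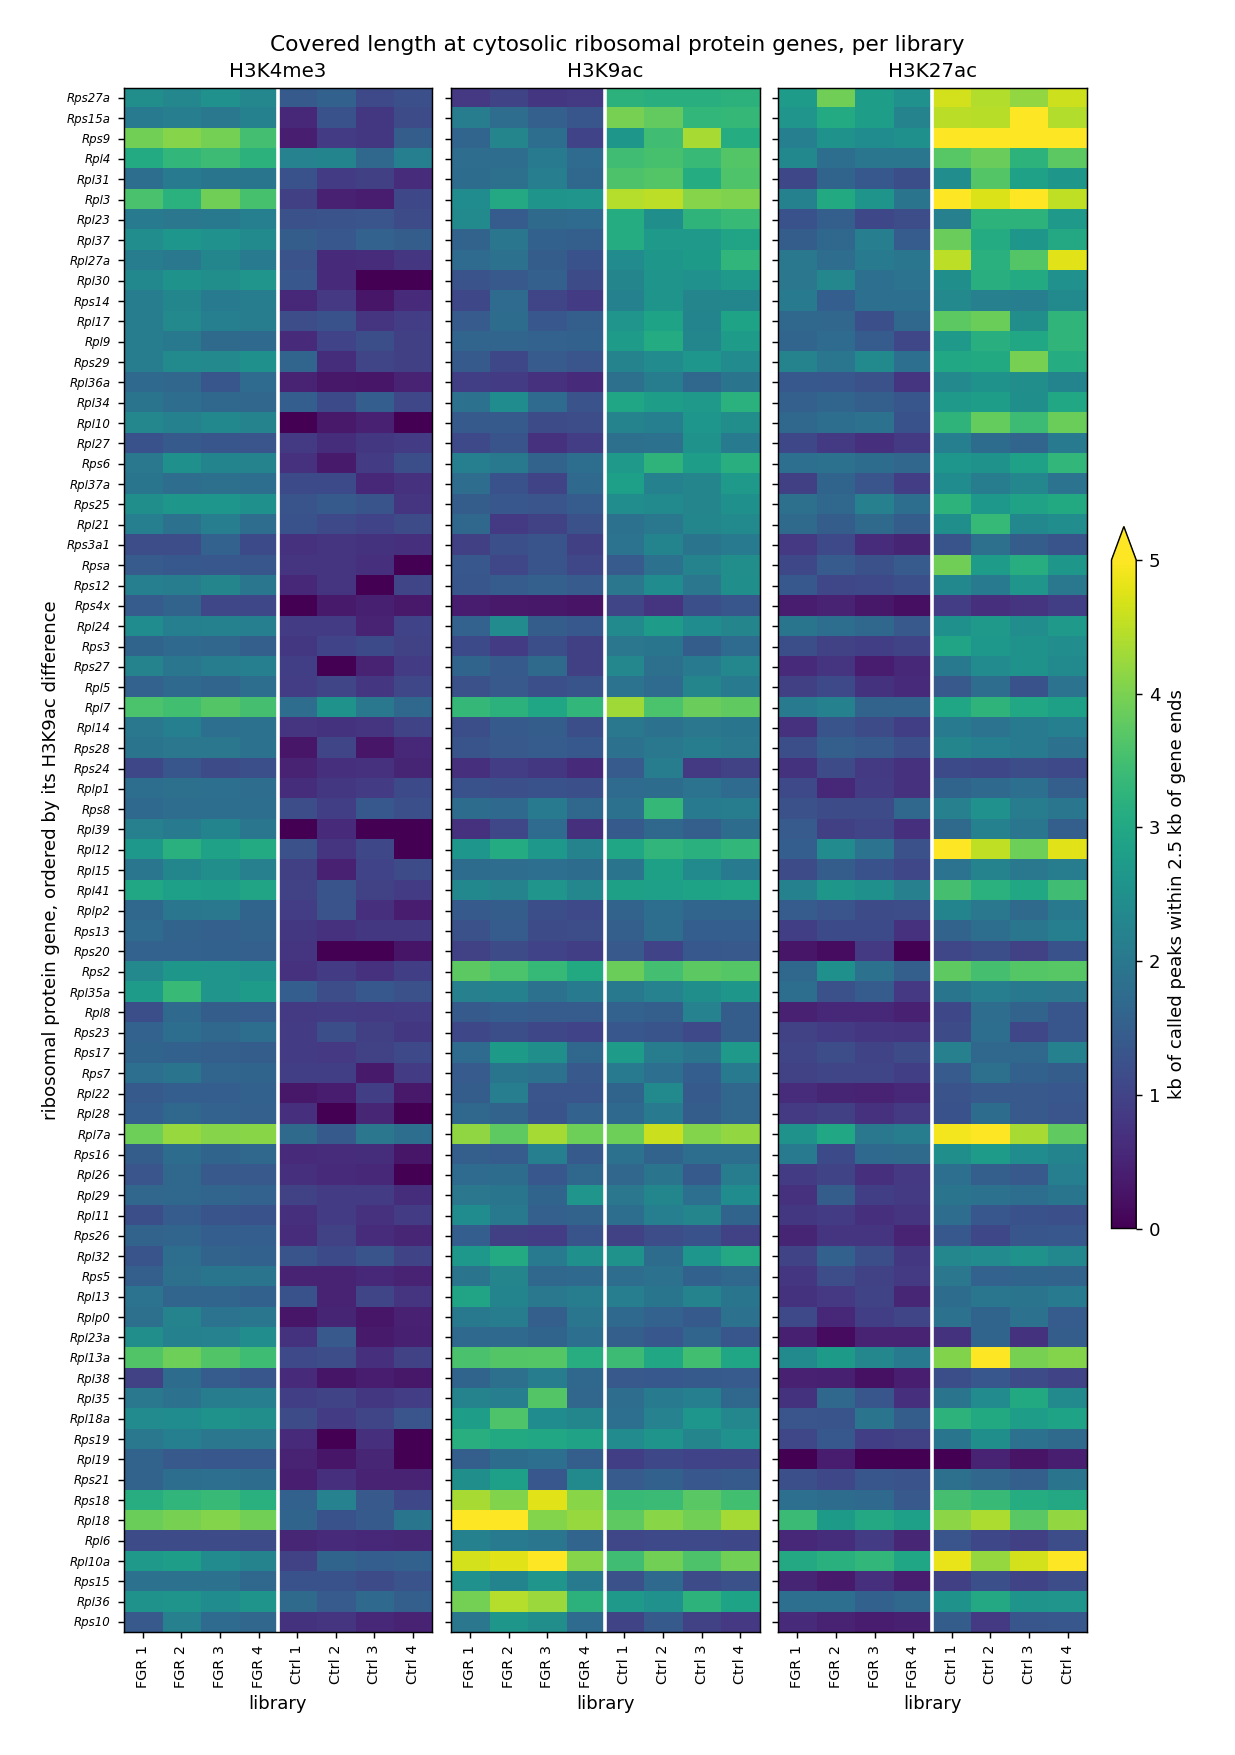
Covered length in kb at 76 of the 77 ribosomal protein genes (rows, ordered by their H3K9ac difference) in each library (columns, FGR left of Ctrl) for H3K4me3, H3K9ac and H3K27ac. The colour scale is capped at 5 kb. H3K4me3 is longer in the FGR columns at all rows by the mean, H3K27ac is longer in the Ctrl columns, and H3K9ac is longer in Ctrl in the upper rows and in FGR in the lowest rows.

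The largest rises of H3K4me3 were at Rps9, Rpl3, Rpl13a and Rpl18. Rps9, of the small subunit (chromosome 7, 3703954 to 3706897), had 3.93, 4.10, 3.95 and 3.51 kb in the FGR libraries, against 0.425, 0.868, 0.819 and 1.48 kb in the Ctrl libraries. The groups lay far apart, with means of 3.87 ± 0.25 kb in FGR and 0.897 ± 0.435 kb in Ctrl (SD, n = 4 each), a difference of 2.97 kb (SE 0.217, limma adjusted p = 3.83e-06). Rpl3, which reaches towards the peptidyl transferase centre, had 3.56, 3.19, 3.91 and 3.54 kb in FGR and 0.938, 0.466, 0.376 and 1.08 kb in Ctrl libraries. Its difference was 2.83 kb (SE 0.199, limma adjusted p = 3.16e-06). Rpl13a, known in human cells for a second role in silencing inflammatory transcripts, had 3.66 ± 0.178 kb in FGR and 0.986 ± 0.215 kb in Ctrl. Its window overlaps Flt3l. Rpl18, whose window is shared with Fam83e and Sphk2, had 3.96 ± 0.0784 kb in FGR and 1.56 ± 0.302 kb in Ctrl.

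At the other end, Rpl32 had 1.3, 1.81, 1.59 and 1.55 kb in FGR and 1.31, 1.11, 1.29 and 1.02 kb in Ctrl libraries. FGR replicate 1 fell just inside the Ctrl range, and the difference of 0.38 kb (SE 0.12) had a limma adjusted p = 0.0128. Rpl34 had 1.77 ± 0.121 kb in FGR and 1.29 ± 0.231 kb in Ctrl, and Rpl11 1.3 ± 0.111 kb in FGR and 0.793 ± 0.101 kb in Ctrl. All 3 had more H3K4me3 in FGR, by 0.38 to 0.51 kb.

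By role, the ribosomal stalk, which recruits the translation GTPases, gained H3K4me3 at its base protein Rplp0 (1.99 ± 0.172 kb in FGR, 0.398 ± 0.107 kb in Ctrl) and at Rplp1 and Rplp2, which had 1.82 kb each in FGR and 0.868 and 0.819 kb in Ctrl. Rpl5 forms with Rpl11 a particle that binds Mdm2 when it is left unassembled, and had 1.68 ± 0.0983 kb in FGR and 0.953 ± 0.121 kb in Ctrl. Rpl4, which lines the exit tunnel, had one of the longest Ctrl levels, with 3.25 ± 0.151 kb in FGR and 2.07 ± 0.269 kb in Ctrl. Rpl22, a protein that mice can replace by a paralog, had 1.49 ± 0.0581 kb in FGR and 0.494 ± 0.289 kb in Ctrl. In the small subunit, Rps6, the target of the S6 kinases, had 2.25 ± 0.207 kb in FGR and 0.791 ± 0.355 kb in Ctrl. Rps27a, made as a fusion with ubiquitin, had 2.41 ± 0.107 kb in FGR and 1.33 ± 0.205 kb in Ctrl.

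Rps2 and Rps3, at the entry of the mRNA channel, had 2.54 ± 0.128 and 1.62 ± 0.0835 kb in FGR and 0.803 ± 0.112 and 0.985 ± 0.132 kb in Ctrl. Rps14 and Rps19, whose loss of 1 copy causes anaemia in humans, had 2.15 ± 0.0991 and 2.03 ± 0.0884 kb in FGR and 0.574 ± 0.217 and 0.323 ± 0.375 kb in Ctrl. Rpsa, also known as the laminin receptor, had 1.38 ± 0.0371 kb in FGR and 0.553 ± 0.37 kb in Ctrl. Each of these rose, and in each the groups were apart.

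The 4 X-linked members had low Ctrl levels of H3K4me3. So had some members on other chromosomes, such as Rps19 with 0.323 kb and Rplp0 with 0.398 kb in Ctrl. Rpl10, needed for a last step of large subunit maturation, had 2.32, 2.19, 2.33 and 2.23 kb in FGR libraries and 0, 0.341, 0.468 and 0 kb in Ctrl libraries. Rpl39, of the exit tunnel, had 2.17, 2.04, 2.25 and 1.97 kb in FGR, while 0.597 kb in replicate 2 was its only Ctrl value above 0. Rpl36a had 1.61 ± 0.187 kb in FGR and 0.401 ± 0.0961 kb in Ctrl, and Rps4x 1.3 ± 0.269 kb in FGR and 0.286 ± 0.196 kb in Ctrl. Rpl39 and Rpl10 also filled the smallest share of their windows in Ctrl of all 77 members, with 1.94% and 2.76%, against 27.3% and 31.0% in FGR. Within 1 kb of a gene end, a peak stood at all 77 members in each FGR library and at 64 to 71 members in the Ctrl libraries. This number was not counted over all genes. The Ctrl H3K4me3 lists were shorter as a whole, with 16551 to 18344 peaks against 43052 to 48922 in FGR.

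Quantile normalization, which gives every library the same distribution of covered lengths over all genes, left 16 members covered more and 18 less in FGR, beside 15.8% more and 24.2% less of all genes tested. The median difference over members was then 0.0733 kb. The direction of H3K4me3 at the members therefore depends on whether the general shift between groups is kept, and Rpl32, Rpl34 and Rpl4 were among those covered less after quantile normalization. A further setting, chosen after seeing the data, scaled the pileup and background of each list to the lowest background of its mark and kept peaks above 1 common p-value. With lists scaled in this way 76 members were covered more and none less, beside 96.9% more and 0% less of all genes. The scaling only dropped peaks and kept the widths of the rest. It left 5873 to 8023 of 16551 to 18344 peaks in the Ctrl H3K4me3 lists. In the FGR lists it left 42381 to 45677 of 43052 to 48922. As it cut the Ctrl lists the most, it could hardly shrink the rise and cannot show that the rise holds at equal depth. With the FGR labels of H3K4me3 and H3K9ac exchanged, 65 members were covered more and 1 less, beside 63.8% more and 1.43% less of all genes.

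**Figure D2:**
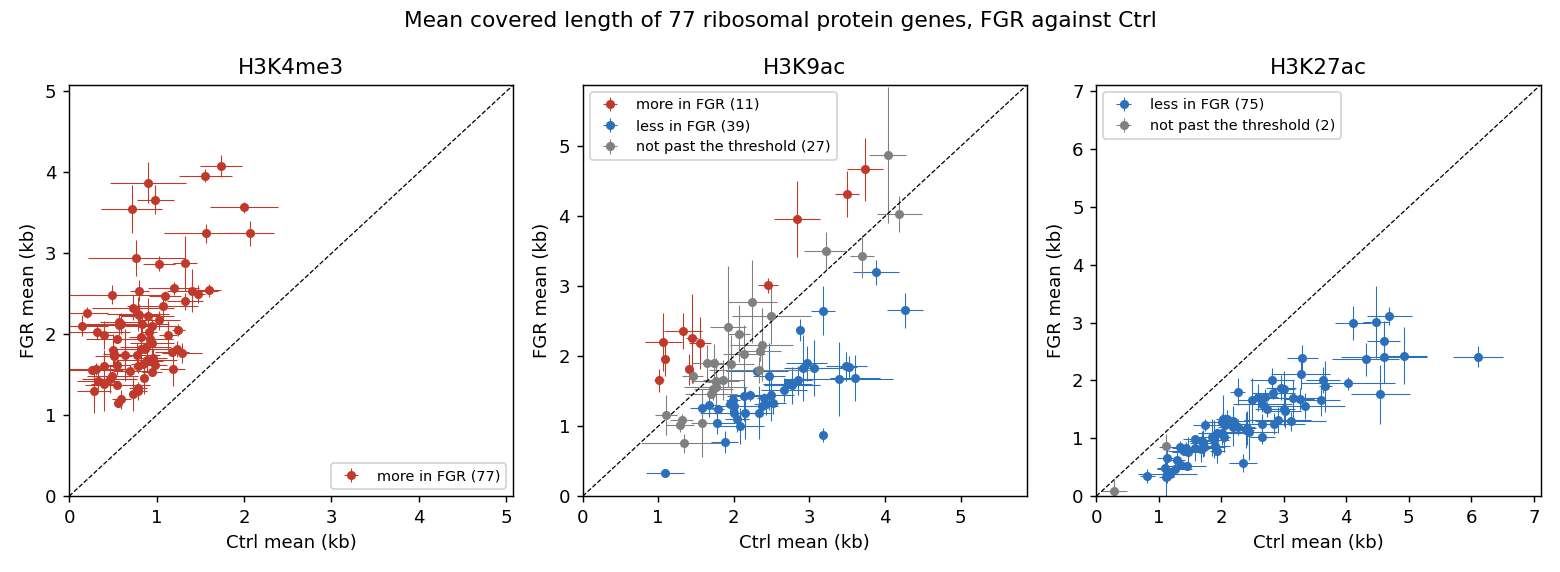
Mean covered length of each ribosomal protein gene in FGR (vertical axis, kb) against Ctrl (horizontal axis, kb) for 3 marks, with bars of 1 SD over 4 libraries and a dashed line of equality. All 77 points lie above the line for H3K4me3 and below it for H3K27ac, and they scatter to both sides for H3K9ac, with 11 genes more and 39 less in FGR.

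H3K9ac moved both ways. It fell in FGR at 39 of the 77 members and rose at 11 (limma adjusted p under 0.05), and 27 did not pass the test. Of the 15605 genes tested, 30% fell and 28.5% rose. The median member had 1.68 kb in FGR and 2.14 kb in Ctrl, and the median difference was -0.518 kb over members and 0.0308 kb over all genes tested. Every FGR library lay below every Ctrl library at 37 members (28.8% of all genes tested) and above at 9 (25.3%), and the groups overlapped at 31. Both subunits held genes of either direction, with 24 falls and 5 rises among 46 large subunit genes and 15 falls and 6 rises among 31 small subunit genes. Of the 36 members with no other protein-coding gene in their window, 18 fell and 4 rose.

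H3K9ac at neuron markers summed to 4.39 to 6.09 kb in FGR libraries and 0.325 to 0.709 kb in Ctrl libraries, with 2 of the 7 genes at 0 in all FGR and 4 at 0 in all Ctrl libraries. Microglia markers summed to 28.7 to 31.4 kb in FGR and 47.4 to 50.9 kb in Ctrl. Oligodendrocyte markers had 3.85 to 5.47 kb in FGR and 1.52 to 2.81 kb in Ctrl, and astrocyte markers 3.02 to 6.09 kb in FGR and 3.82 to 5.75 kb in Ctrl. Endothelial markers had 2.565 to 5.635 kb in FGR and 1.51 to 2.75 kb in Ctrl. These sums hide opposite moves of single genes. Of the 10 microglia markers 7 fell, while Tmem119 and Sall1 rose by 1.32 and 0.684 kb (limma adjusted p under 0.05). Of 4 astrocyte markers tested, Slc1a3 fell by 2.25 kb, while Gfap and Aldh1l1 rose by 0.874 and 1.02 kb. The part of other cell types in the H3K9ac result at ribosomal protein genes was not tested.

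The largest fall was at Rps27a (chromosome 11, 29545842 to 29548040), whose window is shared with Mtif2 and Clhc1. It had 0.837, 1.02, 0.787 and 0.846 kb in FGR libraries, against 3.22, 3.14, 3.13 and 3.21 kb in Ctrl libraries. The replicates of each group were close and the groups far apart, with a difference of -2.30 kb (SE 0.0886, limma adjusted p = 7.28e-07). Rps15a, a small subunit gene with a window of its own, had 2.10, 1.79, 1.54 and 1.34 kb in FGR and 3.97, 3.80, 3.32 and 3.33 kb in Ctrl libraries. The groups did not overlap, with a difference of -1.91 kb (SE 0.208, limma adjusted p = 0.000109), although within 1 kb of the gene ends the difference was only -0.196 kb and did not pass the test.

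Rps9 had 1.62, 2.27, 1.81 and 1 kb in FGR and 2.64, 3.48, 4.34 and 3.09 kb in Ctrl libraries, a wider spread and a difference of -1.71 kb (SE 0.378, limma adjusted p = 0.00435). Rpl4, whose window is shared with Snapc5 and Zwilch, had 1.78, 1.79, 2.08 and 1.75 kb in FGR and 3.47, 3.55, 3.39 and 3.66 kb in Ctrl. FGR was lower in every library, by 1.67 kb on average (SE 0.11, limma adjusted p = 9.86e-06). Rpl3, with 2.66 ± 0.252 kb in FGR and 4.27 ± 0.237 kb in Ctrl, was another member that rose in H3K4me3 and fell in H3K9ac.

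The largest rise was at Rps10, which is ubiquitinated when ribosomes stall (chromosome 17, 27630415 to 27635244) and has a window of its own. It had 1.97, 2.64, 2.47 and 1.75 kb in FGR libraries and 1.03, 1.41, 0.993 and 0.832 kb in Ctrl libraries. The groups did not overlap, with a difference of 1.14 kb (SE 0.213, limma adjusted p = 0.00182). Rps15, of the small subunit, had 2.53, 2.25, 2.61 and 2.05 kb in FGR and 1.23, 1.71, 1.15 and 1.24 kb in Ctrl, in a window shared with Apc2. It too was higher in every FGR library, by 1.03 kb (SE 0.168, limma adjusted p = 0.00091).

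Rpl36 had 3.95, 4.44, 4.25 and 3.22 kb in FGR and 2.70, 2.53, 3.23 and 2.90 kb in Ctrl, in a window shared with Lonp1 and Micos13. FGR replicate 4 lay just under Ctrl replicate 3, so the groups overlapped (difference 1.12 kb, SE 0.266, limma adjusted p = 0.0062). Rpl10a had 4.67 ± 0.446 kb in FGR and 3.73 ± 0.236 kb in Ctrl, in a window shared with Fance and Tead3. Its rise of 0.94 kb did not pass the test with windows of 1 kb (0.179 kb) or with the start alone (0.138 kb). Among the other members that rose, Rpl6, Rpl19, Rpl38, Rps18, Rps19 and Rps21 did so by 0.41 to 0.87 kb.

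**Figure D3:**
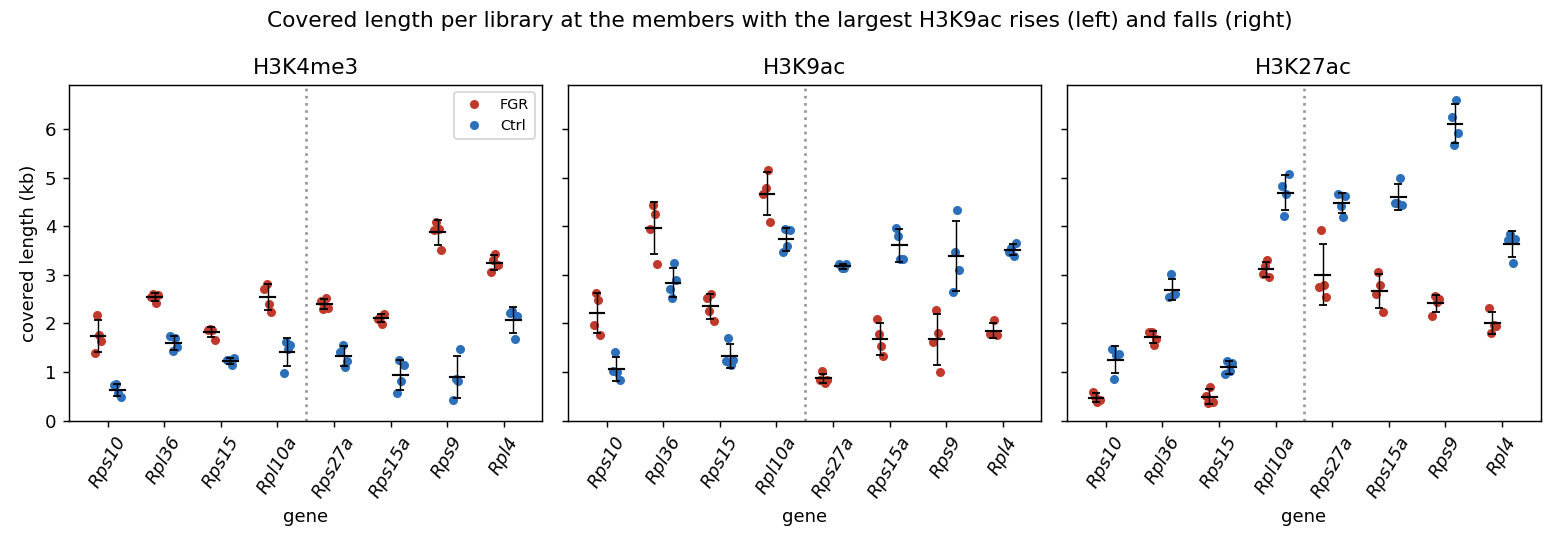
Covered length in kb per library (points, with mean and 1 SD, n = 4, FGR left of Ctrl) at the 4 ribosomal protein genes with the largest rise of H3K9ac (left of the dotted line) and the 4 with the largest fall (right), for 3 marks. All 8 genes have more H3K4me3 and less H3K27ac in FGR, whichever way H3K9ac went.

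Within functional parts of the ribosome, H3K9ac did not move as a block. In the stalk, Rplp1 and Rplp2 fell, with 1.24 ± 0.0255 and 1.3 ± 0.172 kb in FGR and 1.79 ± 0.0743 and 1.67 ± 0.094 kb in Ctrl. Their base protein Rplp0 had 1.90 ± 0.257 kb in FGR and 1.65 ± 0.198 kb in Ctrl and did not pass the test (limma adjusted p = 0.183). Of the pair that binds Mdm2, Rpl5 fell, with 1.29 ± 0.0761 kb in FGR and 2 ± 0.227 kb in Ctrl, while Rpl11 had 1.89 ± 0.416 kb in FGR and 1.96 ± 0.311 kb in Ctrl. The fall of Rpl5 lay away from the gene ends, since within 1 kb of them it was covered more in FGR, by 0.352 kb (limma adjusted p = 0.000574). Rpl22 had 1.56 ± 0.393 kb in FGR and 1.76 ± 0.416 kb in Ctrl, which did not pass the test.

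In the small subunit, H3K9ac fell at Rps3 (1.04 ± 0.144 kb in FGR, 1.78 ± 0.233 kb in Ctrl), Rps6 (1.90 ± 0.248 kb in FGR, 2.97 ± 0.272 kb in Ctrl) and Rps14 (1.19 ± 0.38 kb in FGR, 2.34 ± 0.171 kb in Ctrl). It fell at Rpsa as well, with 1.2 ± 0.151 kb in FGR and 2.01 ± 0.451 kb in Ctrl. Rps2 had 3.43 ± 0.31 kb in FGR and 3.70 ± 0.158 kb in Ctrl and did not pass. Rps19 rose, with 3.01 ± 0.109 kb in FGR and 2.45 ± 0.131 kb in Ctrl, but within 1 kb of the gene ends its difference was -0.199 kb. On X, H3K9ac fell at Rpl10 (1.29 ± 0.143 kb in FGR, 2.37 ± 0.213 kb in Ctrl), Rpl36a (0.775 ± 0.153 kb in FGR, 1.88 ± 0.179 kb in Ctrl) and Rps4x (0.33 ± 0.0548 kb in FGR, 1.09 ± 0.247 kb in Ctrl). Rpl39 had 0.708, 1.06, 1.74 and 0.693 kb in FGR and 1.41, 1.66, 1.51 and 1.76 kb in Ctrl libraries, with FGR replicate 3 inside the Ctrl range (limma adjusted p = 0.0686). The smallest differences were at Rps26, Rpl11 and Rpl32, between -0.07 and 0.09 kb.

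The order of members by H3K9ac was kept in part. Across the 77 members, the share of the window under peaks in FGR and in Ctrl had a Spearman rho of 0.518 for H3K9ac and 0.55 for H3K4me3, against 0.914 for H3K27ac. These are descriptions over genes that share their libraries. With the FGR labels of the first 2 marks exchanged, 25 members fell in H3K9ac and 12 rose, beside 12% falls and 36.3% rises over all genes. The median H3K9ac difference was -0.34 kb without Ctrl replicate 2.

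The number of rises in H3K9ac also moved with the way peaks were read. With lists of equal length 7 members rose and 42 fell, beside 22.4% rises and 37.4% falls over all genes. With peaks of a −log10 q of at least 5 it was 7 and 39 (21.7% and 35.5% of all genes), and at the start alone 5 and 28 of 57 members (23.9% and 37.7%). With windows of 1 kb, 9 rose and 35 fell (25.9% and 29.1%), after quantile normalization 14 rose and 38 fell (23% and 31.6%), and with lists scaled to equal background 13 rose and 35 fell (33.3% and 26.9%). In each of these settings more members fell than rose.

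H3K27ac was shorter in FGR at nearly every member. It fell at 75 of the 77 (limma adjusted p under 0.05) and rose at none, while 81.6% of the 11876 genes tested fell and 0.185% rose. In 75 members every FGR library lay below every Ctrl library, as in 74% of all genes. The median member had 1.23 kb in FGR and 2.26 kb in Ctrl, and the median difference was -0.973 kb beside -0.707 kb over all genes tested. After quantile normalization 8 members fell and 3 rose, beside 11.3% falls and 12.5% rises over all genes, so the fall, like the rise of H3K4me3, depends on whether the general shift is kept. Microglia markers summed to 43.002 to 51.8 kb of H3K27ac in FGR libraries and 82.96 to 83.997 kb in Ctrl libraries, and neuron markers to 0 to 0.364 kb in FGR and 0 kb in every Ctrl library. Oligodendrocyte markers had 1.19 to 1.73 kb in FGR and 2.22 to 3.01 kb in Ctrl, and endothelial markers 1.85 to 2.51 kb in FGR and 2.43 to 4.02 kb in Ctrl. Their part in the H3K27ac result was not tested. With lists scaled to equal background 74 of the 76 members tested fell and none rose, beside 73.1% falls and 1% rises over all genes.

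**Figure D4:**
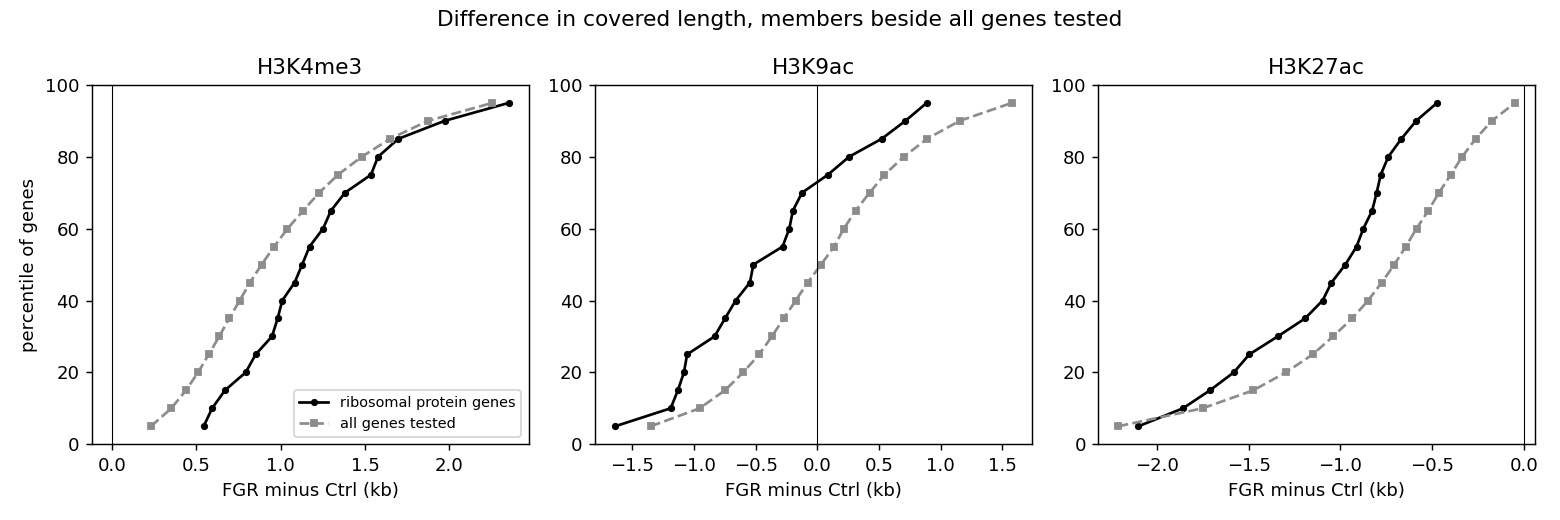
Difference in covered length (FGR minus Ctrl, kb, horizontal axis) at percentiles 5 to 95 in steps of 5 (vertical axis, percentile of genes) of the 77 ribosomal protein genes and of all genes tested, for 3 marks. The members lie to the right of all genes for H3K4me3 and, over most percentiles, to the left for H3K9ac and H3K27ac.

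Rps9 had the largest fall of H3K27ac, with 2.15, 2.57, 2.43 and 2.5 kb in FGR libraries and 6.25, 5.67, 6.59 and 5.92 kb in Ctrl libraries. Its window was the most fully covered of all members in Ctrl, at 30.4% in FGR and 76.9% in Ctrl, and the difference was -3.69 kb (SE 0.193, limma adjusted p = 1.48e-06). Rpl12, which sits at the base of the stalk, had 1.49, 2.4, 1.91 and 1.24 kb in FGR and 4.99, 4.52, 3.89 and 4.78 kb in Ctrl, in a window shared with Lrsam1. The groups were far apart (difference -2.78 kb, SE 0.287, limma adjusted p = 2.67e-05). Rpl3 had 2.43 ± 0.485 kb in FGR and 4.92 ± 0.372 kb in Ctrl, and Rpl7a, in a window shared with Med22 and Surf1, 2.41 ± 0.455 kb in FGR and 4.60 ± 0.687 kb in Ctrl.

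Only Rps24 and Rpl19 did not pass the test. Rps24, mutated in some human inherited anaemias, had 0.740, 1.17, 0.849 and 0.712 kb in FGR and 1.12, 1.09, 1.17 and 1.10 kb in Ctrl libraries, with FGR replicate 2 at the Ctrl level (limma adjusted p = 0.0705). Rpl19, which bridges the subunits, was nearly free of H3K27ac peaks in both groups, with 0, 0.374, 0 and 0 kb in FGR and 0, 0.473, 0.267 and 0.411 kb in Ctrl. Its limma adjusted p was 0.216. Rpl19 was also among the members whose H3K9ac rose, with 1.52, 1.77, 1.82 and 1.51 kb in FGR and 0.937, 1.08, 1 and 1.02 kb in Ctrl.

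The stalk lost H3K27ac at all 3 genes, Rplp0 with 0.912 ± 0.235 kb in FGR and 1.70 ± 0.198 kb in Ctrl, Rplp1 with 0.818 ± 0.228 kb in FGR and 1.67 ± 0.139 kb in Ctrl, and Rplp2 with 1.28 ± 0.139 kb in FGR and 2.01 ± 0.211 kb in Ctrl. Rpl5 and Rpl11 had 0.838 and 0.782 kb in FGR and 1.59 and 1.40 kb in Ctrl. Rpl4 had 2.01 ± 0.223 kb in FGR and 3.63 ± 0.272 kb in Ctrl, and Rpl22 0.544 ± 0.0653 kb in FGR and 1.36 ± 0.0494 kb in Ctrl. All of these fell, and in all of them the groups were apart.

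In the small subunit the means were 1.90 kb in FGR and 3.67 kb in Ctrl at Rps2, 1.03 kb in FGR and 2.66 kb in Ctrl at Rps3, and 1.78 kb in FGR and 2.83 kb in Ctrl at Rps6. They were 1.09 kb in FGR and 2.01 kb in Ctrl at Rps19, 3.00 kb in FGR and 4.47 kb in Ctrl at Rps27a, and 1.29 kb in FGR and 3.11 kb in Ctrl at Rpsa. Rps14 had the smallest of the falls named here, with 1.81 ± 0.237 kb in FGR and 2.26 ± 0.12 kb in Ctrl (limma adjusted p = 0.0108). On X, H3K27ac fell at Rpl10 (1.66 kb in FGR, 3.60 kb in Ctrl), Rpl36a (1.18 kb in FGR, 2.42 kb in Ctrl), Rpl39 (1.02 kb in FGR, 1.85 kb in Ctrl) and Rps4x (0.349 kb in FGR, 0.819 kb in Ctrl).

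The position of the peaks differed as well as their length. At the 57 members with a known start, the share lying inside a called peak was followed in steps of 100 bp, and is given as the mean over the 4 libraries of a group. For H3K27ac, 50 bp before the start, 14.0% of members lay in a peak in FGR (12.3 to 17.5% per library) and 75.4% in Ctrl (71.9 to 77.2%), beside 12.3% and 35.4% of all 17274 genes with a known start in FGR and Ctrl. At that point 47 members were in no FGR library inside a peak, and 11 were in no Ctrl library inside one, numbers not counted over all genes. The start itself was thus a gap between peaks in FGR, with 53.1% of members in a peak 250 bp before it and 84.6% 250 bp after it, against 76.3% and 93.0% in Ctrl. At these 2 points all genes had 24.5% and 30.3% in FGR and 35.3% and 42.5% in Ctrl.

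At 850 bp after the start, 31.6% of members lay in an H3K27ac peak in FGR and 84.2% in Ctrl, beside 16.1% and 26.9% of all genes. H3K9ac at that point covered 52.2% of members in FGR (50.9 to 54.4%) and 90.8% in Ctrl (89.5 to 93.0%), beside 25.4% and 31.2% of all genes in FGR and Ctrl. Close to the start the share under H3K9ac was not lower in FGR, with 75.9% of members 50 bp before it in FGR and 65.4% in Ctrl, and 94.7% in FGR and 94.3% in Ctrl 250 bp after it. At 850 bp, 22 members were in an H3K9ac peak in all 4 FGR libraries and 18 in none of them, against 46 and 1 in the Ctrl libraries. These numbers too were not counted over all genes. Upstream, 52.6% of members lay in an H3K9ac peak in FGR (50.9 to 56.1%) and 68.4% in Ctrl (63.2 to 71.9%) 450 bp before the start, beside 22.6% and 28.8% of all genes in FGR and Ctrl. At 750 bp before it, the shares were 18% in FGR (15.8 to 22.8%) and 34.6% in Ctrl (33.3 to 36.8%), beside 10.7% and 16.5% of all genes. H3K9ac thus reached less far in FGR on both sides of the start, at the members and over all genes alike.

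H3K4me3 was the reverse, with 96.5% of members in a peak 850 bp after the start in FGR (94.7 to 98.2%) and 20.6% in Ctrl (17.5 to 22.8%). All genes stood at 37.6% in FGR and 14.5% in Ctrl there. It also dipped at the start in both groups, to 49.6% in FGR and 22.8% in Ctrl 50 bp before it, between 78.5% in FGR and 36.8% in Ctrl at 250 bp before and 94.7% in FGR and 77.2% in Ctrl at 250 bp after. The strongest peak of a member had a median width of 1383 to 1584 bp in FGR libraries and 560 to 694 bp in Ctrl libraries for H3K4me3. For H3K9ac it was 1310 to 1392.5 bp in FGR and 1789.5 to 1832 bp in Ctrl, and for H3K27ac 544 to 676 bp in FGR and 1731 to 1884 bp in Ctrl. Members had 1.95 to 2.14 separate H3K27ac peaks on average in FGR and 1.22 to 1.39 in Ctrl, a number not counted over all genes. Over all peaks of a list, H3K4me3 median widths were 540 to 568 bp in FGR and 537 to 559 bp in Ctrl. They were 407 to 460 and 634 to 696 bp for H3K9ac, and 314 to 365 and 825 to 920 bp for H3K27ac. Narrower H3K9ac and H3K27ac peaks in FGR were thus a trait of the whole lists.

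**Figure D5:**
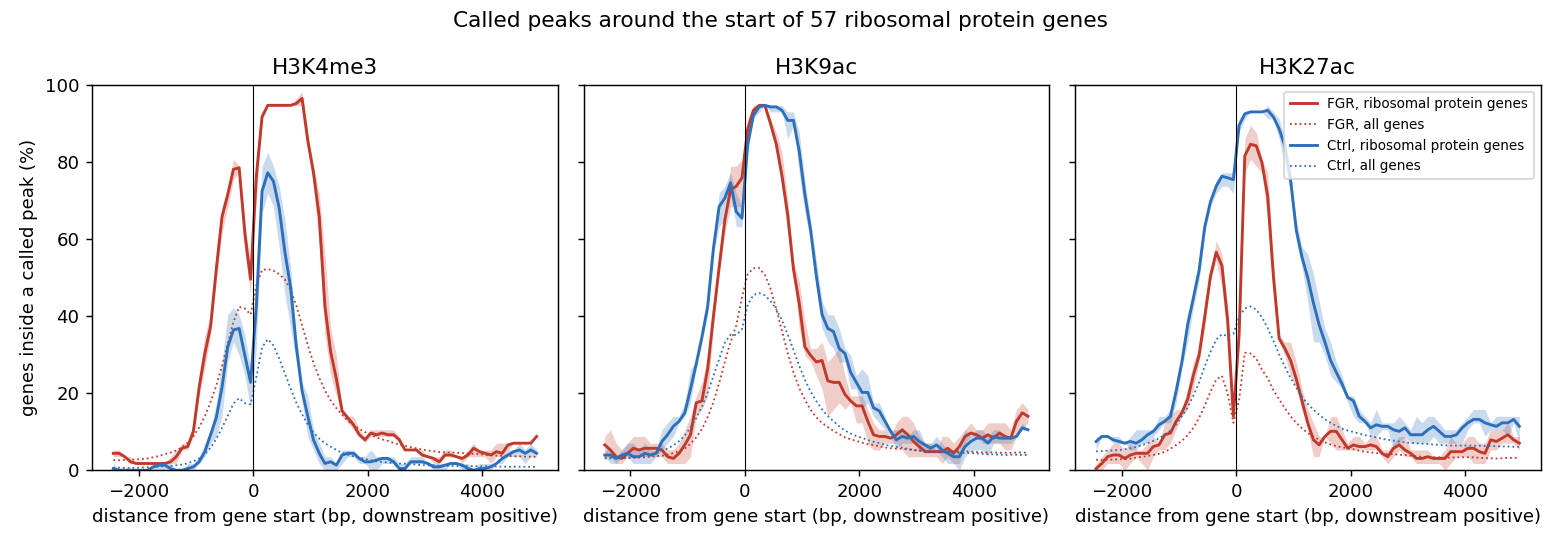
Percent of genes inside a called peak (vertical axis) by distance from the gene start in bp (horizontal axis, downstream positive), for the 57 ribosomal protein genes with a known start (solid, mean of 4 libraries with the range shaded) and 17274 protein-coding genes (dotted). For H3K27ac the FGR line drops to 14.0% just before the start, where Ctrl stays at 75.4%, and at 850 bp the FGR line is above Ctrl for H3K4me3 and below it for H3K9ac and H3K27ac.

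Across the 3 marks, the members fell into few combinations. All 77 rose in H3K4me3 and 75 fell in H3K27ac, beside 95.5% and 81.6% of all genes tested. The combinations therefore mainly repeat the H3K9ac calls, and their shares over all genes were not counted. Rise of H3K4me3 with falls of H3K9ac and H3K27ac was the most frequent, at 39 members. A further 26 had the rise of H3K4me3 and the fall of H3K27ac with no call for H3K9ac, and 10 combined a rise of both H3K4me3 and H3K9ac with a fall of H3K27ac. Rpl19 rose in H3K4me3 and H3K9ac without a call for H3K27ac, and Rps24 rose in H3K4me3 alone. Among the 57 members with a known start, the promoters of the 30 that fell in H3K9ac had a median G and C content of 56.7% (40.7 to 67.3%), and those of the 9 that rose had 60% (49.3 to 72.3%), so the ranges overlapped widely.

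H3K9me3, the heterochromatin mark, was called at few genes of any kind. In lists limited to a −log10 q of at least 1.3, no member had any covered length in any library of either group, so 0 of the 77 members entered the limma test and none could be called or have an unadjusted p under 0.05. The same lists covered 305 to 584 of all 21631 genes per FGR library and 2 to 15 per Ctrl library, and 1.83% of all genes could be tested, so the count of 0 members is close to the background. Of the 395 genes tested, 35.2% were covered more in FGR and 0.253% less. In the lists as deposited, which reach lower thresholds in Ctrl, the FGR broad lists again covered 0 members, beside 3%, 2.42% and 3.91% of all genes in FGR replicates 1, 2 and 3, so this count too is close to the background. Those of Ctrl replicates 1, 2 and 3 covered 10, 13 and 4 (12.99%, 16.9% and 5.19% of members, beside 52.1%, 50.1% and 41.0% of all genes). The narrow lists of replicate 4 covered 0 members in both groups.

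The 4 members with the longest H3K9me3 coverage in the deposited lists were 0 in every FGR library. Rps26, near the mRNA exit, had 0.274, 1.17 and 0.34 kb in Ctrl replicates 1 to 3. Rps6 had 0, 0.867 and 0.739 kb, Rpl27a 1.17, 0.286 and 0 kb, and Rps7 0.304, 1.10 and 0 kb in the same Ctrl replicates. Rps26 was the only member covered in all 3 of these Ctrl lists. As deposited, 6 members could be tested, and limma called 0 of them, 0 also at an unadjusted p under 0.05, beside 34.9% of 10313 genes covered less in FGR and 0.0873% more.

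Other genes of ribosome production and protein turnover, chosen as lists by function, are set beside the members by their counts. In H3K4me3, 77 of 78 mitochondrial ribosomal protein genes, 38 of 38 tested proteasome genes, 29 of 29 tested ribosome biogenesis genes and 17 of 17 translation factor and other TOP genes were covered more in FGR. Their median differences were 0.763, 0.891, 1.18 and 1.53 kb. In H3K9ac, 31 mitochondrial ribosomal protein genes fell and 5 rose of 78, 16 proteasome genes fell and 1 rose of 39, 15 biogenesis genes fell and 4 rose of 30, and 10 TOP genes fell and 2 rose of 17. Their median differences were -0.249, -0.227, -0.374 and -0.383 kb, beside -0.518 kb for the cytosolic ribosomal protein genes. In H3K27ac, 71 of 77, 35 of 38, 28 of 29 and 16 of 17 tested genes of these lists fell, and none rose. Over all genes tested, 95.5% rose in H3K4me3, 30% fell and 28.5% rose in H3K9ac, and 81.6% fell in H3K27ac. The H3K4me3 counts of these lists are thus close to the background.

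Among the TOP genes, Fau, which encodes a ribosomal protein fused to a ubiquitin-like protein, fell in H3K9ac, with 2.52 ± 0.195 kb in FGR and 3.06 ± 0.234 kb in Ctrl. Eef1a1, the elongation factor that brings in aminoacyl-tRNA, fell as well, with 2.05 ± 0.185 kb in FGR and 2.75 ± 0.217 kb in Ctrl. Of 14 genes of growth signalling to the ribosome, 5 fell (35.7%) and 4 rose (28.6%) in H3K9ac. Over all genes tested 30% fell and 28.5% rose, so these counts are close to the background. Mtor, the kinase of the mTOR complexes, fell, with 2.09 ± 0.597 kb in FGR and 3.05 ± 0.167 kb in Ctrl. Tsc2, which restrains it, rose, with 3.01 ± 0.998 kb in FGR and 1.27 ± 0.23 kb in Ctrl. The list had no common direction. Akt1, Rps6kb2 and Eif4ebp2 rose as well, Rps6kb1, Rptor, Rheb and Myc fell, and Tsc1 did not pass the test. Of 7 genes for factors that bind ribosomal protein promoters, 4 fell and 0 rose in H3K9ac, and Gabpb1, a subunit of GABP, was listed at 0 in all FGR libraries and had 1.58 ± 0.234 kb in Ctrl.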

How the data were processed

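ULI-NChIP-seq peak lists of 4 histone marks were used, 1 per library, with 4 FGR and 4 Ctrl libraries per mark. Input libraries were not used here. The submitters' processing notes name DiffBind 3.12.0, MACS2 2.2.7.1, Bowtie2 2.4.5, Trim Galore 0.6.5 and SAMtools 1.3.1 and the build mm10, and say nothing of their roles. Peak caller settings were not given in the sources used here. Each deposited peak carries the authors' fold enrichment, a ratio to local background, its deposited −log10 p-value and −log10 q-value, and a score that the authors give as whole numbers. They served to rank or filter the peaks of 1 list. H3K9me3 lists of replicates 1 to 3 were broad and those of replicate 4 narrow.

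Covered length per gene was the union of peaks within 2.5 kb of either end of its RefSeq gene (GRCm38.p6, the assembly behind mm10). The windows of the 2 ends merged at 65 members, so windows ran from 5.98 to 10.0 kb, and 41 members shared theirs with another protein-coding gene. Genes with a peak in the window in 2 or more libraries of a mark were tested. Groups were compared per mark with limma 3.58.1 in R 4.3.3 (lmFit, eBayes, two-sided), with p-values adjusted by Benjamini-Hochberg over every tested gene and called under 0.05. H3K9me3 peaks with a −log10 q under 1.3 were left out because the deposited Ctrl lists reach lower than those of FGR, and only replicates 1 to 3 entered that test. Depth is unknown: a background per list was solved from the deposited fold and −log10 p of its peaks. The pileup solved with it should be a whole number. It was for 56.56 to 92.78% of peaks in the FGR H3K9ac lists and 88.65 to 100% in the FGR H3K27ac lists. In the Ctrl lists of both marks it was for 100%, so the background is less sure in FGR. Scripts ran in Python 3.11.15 with pandas 2.3.3. No 2 replicates shared more than 0.544% of identical peaks. The labels do not say whether replicate numbers pair libraries, and the main test did not use them as pairs.

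The members and gene lists were chosen with earlier results of these data known. Genes were named by role (stalk, Mdm2-binding pair, peptidyl transferase centre, exit tunnel, mRNA entry, X-linked and others), by the 4 largest called rises and falls and the 3 smallest differences per mark, and by a lack of peaks in most libraries. The other members that rose in H3K9ac, the genes of other lists, and the 6 promoters were chosen after their values were seen. Values of 2 genes are not reported here.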

Additional observations from a re-analysis of the deposited data

Results flagged for a closer look

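In 8 of 150 sets of 4 libraries, 1 library stood apart from the other 3 by the gap between them. Chance flags about 1 in 20 such groups. In H3K4me3, Ctrl replicate 3 of Rpl22 had 0.926 kb, against 0.326 to 0.387 kb in the other Ctrl libraries, and Ctrl replicate 2 of Rpl39 had 0.597 kb, against 0 kb. For Rpsa, Ctrl replicate 4 was listed at 0 kb, against 0.689 to 0.77 kb in the others. FGR replicate 2 was the highest for Rps14, with 2.302 kb against 2.088 to 2.124 kb, and for Rps19, with 2.165 kb against 1.976 to 2 kb. In H3K9ac, FGR replicate 3 of Rpl4 had 2.081 kb, against 1.754 to 1.788 kb, and Ctrl replicate 2 of Rps15 had 1.705 kb, against 1.146 to 1.24 kb. In H3K27ac, FGR replicate 2 of Rpl19 had 0.374 kb, against 0 kb in the other FGR libraries.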

How the results depend on the processing

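Same-numbered FGR and Ctrl libraries had correlations of their deviations of -0.0126 to 0.0146 for H3K4me3 and 0.00899 to 0.0215 for H3K9ac. The correlations were -0.021 to 0.0337 for H3K27ac and -0.0212 to 0.00416 for H3K9me3. In the same order of marks, 1, 3, 1 (of 4 each) and 0 (of 3) FGR libraries correlated best with their own number. Correlations this small cannot exclude that replicate numbers pair libraries. With a replicate block, 77 members rose in H3K4me3, and 40 fell and 11 rose in H3K9ac. In that setting 75 fell in H3K27ac and 0 were called in H3K9me3. Shares over all genes are not given for the block or for leaving out 1 library below. Such counts describe how stable the calls were and not a trait of the members.

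Leaving out 1 library at a time gave 77 rises and 0 falls in H3K4me3 with median differences of 1.11 to 1.15 kb, 35 to 38 falls and 10 to 13 rises in H3K9ac with medians of -0.546 to -0.340 kb (the last without Ctrl replicate 2), 75 to 76 falls and 0 rises in H3K27ac with medians of -1.01 to -0.945 kb, and 0 calls in H3K9me3. Quantile normalization gave 16 rises and 18 falls in H3K4me3 (median 0.0733 kb), a median of -0.364 kb in H3K9ac, and 3 rises and 8 falls in H3K27ac (median -0.110 kb). Exchanged FGR labels gave 1 fall in H3K4me3 and 25 falls in H3K9ac. The H3K4me3 median was 1.47 kb with lists scaled to equal background, a setting chosen after seeing the data, 1.07 kb in lists of equal length, 1.01 kb at the start alone, 1.29 kb with a −log10 q of at least 5 and 0.811 kb with 1 kb windows. H3K9ac rises numbered 7 with equal lists, 5 at the start alone and 7 with a −log10 q of at least 5, and the H3K9ac median was -0.316 kb with equal background and -0.217 kb with 1 kb windows. The H3K27ac median was -0.657 kb with 1 kb windows. The H3K9me3 lists of equal length, 61 peaks each, could not be fitted. The cause of these changes was not tested.

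Under quantile normalization the H3K4me3 difference turned to -0.43 kb at Rpl11, -0.72 at Rpl32, -0.70 at Rpl34, -0.61 at Rpl4, -0.30 at Rpl5, -0.0782 at Rplp1, -0.0354 at Rplp2, -0.24 at Rps27a, -0.40 at Rps3 and -0.0609 at Rpsa. The H3K27ac difference turned to 0.0644 kb at Rpl11, 0.0043 at Rpl19, 0.16 at Rplp2, 0.61 at Rps14, 0.40 at Rps24, 0.26 at Rps27a, 0.0227 at Rps4x and 0.11 at Rps6. In H3K9ac, Rpl11 turned to 0.14 kb with equal background, 0.0566 after quantile normalization and 0.10 with 1 kb windows, and lay at -0.246 to 0.0501 with 1 library left out. Rpl22 turned to 0.0288 with equal background and 0.0783 with 1 kb windows, and lay at -0.392 to 0.00342 with 1 library left out. Rpl32 turned to -0.0483 with equal lists and -0.0167 with 1 kb windows, and lay at -0.156 to 0.259 with 1 library left out. With 1 kb windows Rpl5 turned to 0.35, Rplp0 to -0.21 and Rps19 to -0.20, and Rplp0 also to -0.21 at the start alone. Rps26 turned to -0.12 with equal lists and with a −log10 q of at least 5, and lay at -0.0517 to 0.141 with 1 library left out.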
